A study of Mus musculus with 23 samples.

Results

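Transcripts of 10 genes used to recognise T cells and natural killer (NK) cells were followed in RNA from mouse bone. The genes were Lag3, the CD3 genes Cd3d, Cd3e, and Cd3g, the coreceptor genes Cd4 and Cd8a, and the cytotoxic and NK-cell genes Nkg7, Gzma, Ncr1, and Klrd1. They were taken by their symbols from a table of 17644 genes, and each symbol matched 1 gene. All 10 passed the filter on low counts, which left 14364 genes in the tests. The genes were chosen by name after results of all comparisons in these same mice were known, so their log2 fold changes with type 1 diabetes (T1D) and between genotypes count as used in the choice. They are given here as a description and support no conclusion about the list.

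RNA had been sequenced from femur and tibia of 23 female C57BL6/N mice, 11 weeks of age, after most of the marrow was spun out. WT mice and mice with a global Sarm1 knockout had received saline (WT Control, n = 5, and KO Control, n = 6) or streptozotocin (WT T1D, n = 6, and KO T1D, n = 6). Streptozotocin, a drug toxic to insulin-producing β cells, was injected on repeated days at 100 mg/kg each time, and T1D had lasted 3 weeks. The paper included T1D mice only if their fasting glucose stayed above a set level. The WT animals were littermates of the knockouts or bought-in mice of the same background, and the labels do not say which. Each library came from 1 mouse.

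T cells recognise peptides through a receptor whose signal is carried by the CD3 chains. CD4 and CD8 bind MHC class II and class I molecules beside that receptor. LAG3 is a relative of CD4 that also binds MHC class II and restrains activated T cells, and NK cells kill target cells with granules that hold perforin and granzymes. In mice, LAG3 and CD4 are also found on plasmacytoid dendritic cells, the main source of type I interferon among blood cells. Marrow and bone hold all of these cells, so a bulk RNA sample mixes them, and fewer cells of a type cannot be told apart from less RNA per cell.

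Library totals lay between 16938101 and 20135592 counts. Over the 55 pairs of mice within groups, the chi-square per gene was 10.9 to 187, above that of repeat counts from 1 library. The WT T1D mice A3905 and A3906 stood apart from the others, with 3018 and 2215 CPM (counts scaled to the library size) of Col1a1, the main collagen gene of bone, against 27360 to 62370 CPM in the other 21 mice. Hemoglobin genes held between 8.01% and 21.4% of the counts, so blood-forming cells remained in every sample. Sarm1 RNA counts did not separate the genotypes here, and genotype was read from the labels. Sarm1 was at 0.799 ± 0.503 CPM in KO Control (SD, n = 6) against 1.17 ± 0.403 CPM in WT Control (n = 5). With T1D, it was at 1.19 ± 0.259 CPM in KO (n = 6) against 0.687 ± 0.293 CPM in WT (n = 6). These values rest on few counts of the whole gene, 5 to 29 per library in KO Control and 15 to 32 in WT Control. In KO T1D they were 15 to 28, and in WT T1D 6 to 21. By qPCR, the paper reports significantly less Sarm1 in knockout bone than in WT bone.

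Several of the genes are neighbours in the genome (build GRCm38.p6). Cd4 lies on chromosome 6 from 124864693 to 124888247 and Lag3 on the same strand from 124904359 to 124912434, with 16111 bases between them. Klrd1 (129588092 to 129598775) and Cd8a (71373427 to 71379171) are on chromosome 6 as well. The CD3 genes fill 40092 bases of chromosome 9, from the start of Cd3g at 44969572 to the end of Cd3e at 45009663. Cd3g and Cd3d (44981769 to 44987052) point away from each other, with 1337 bases between them, and Cd3e (from 44998735) runs on the strand of Cd3g. Nkg7 (43437138 to 43438246) and Ncr1 (4337715 to 4345184) are on chromosome 7, and Gzma (113093824 to 113100981) is on chromosome 13.

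RefSeq promoter sequences of this build were matched for 7 of the 10 genes, and those of Lag3, Cd4, and Klrd1 were not used here. The bases just upstream of the CD3 genes are shown because these genes share a locus and are described together. They are printed 5′ to 3′ on each gene's own strand, for Cd3g chr9:44980432-44980681 (minus strand, 250 bases), for Cd3d chr9:44981536-44981768 (plus strand, 233 bases), and for Cd3e chr9:45009664-45009861 (minus strand, 198 bases). Capitals mark matches, on either strand, to the core letters of RUNX (TGTGGT), ETS (GGAAGT), and TCF/LEF (CTTTGA) factors, which regulate many T-cell genes. For GATA factors, matches to AGATAA were marked, and so were those to TGATAA.
Cd3g: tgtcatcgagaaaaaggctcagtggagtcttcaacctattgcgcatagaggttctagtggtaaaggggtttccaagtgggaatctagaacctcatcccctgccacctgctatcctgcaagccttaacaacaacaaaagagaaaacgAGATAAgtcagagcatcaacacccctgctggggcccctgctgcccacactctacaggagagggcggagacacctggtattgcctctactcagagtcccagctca
Cd3d: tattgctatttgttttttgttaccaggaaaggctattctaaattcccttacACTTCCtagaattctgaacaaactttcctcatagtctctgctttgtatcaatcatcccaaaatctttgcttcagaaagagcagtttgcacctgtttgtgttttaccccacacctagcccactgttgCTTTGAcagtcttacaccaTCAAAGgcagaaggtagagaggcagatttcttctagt
Cd3e: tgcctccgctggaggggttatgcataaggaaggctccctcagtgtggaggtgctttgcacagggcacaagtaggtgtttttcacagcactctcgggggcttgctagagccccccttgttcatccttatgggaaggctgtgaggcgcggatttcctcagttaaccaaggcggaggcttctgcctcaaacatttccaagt
The Cd3g stretch held a GATA match, as did 16.6% of all promoter windows cut to the same length. The Cd3d stretch held an ETS match (17.9% of windows) and TCF/LEF matches on both strands (13.2% of windows held any TCF/LEF match, on either strand). In the Cd3e stretch, 0 of the 4 motifs were found. The matches do not overlap each other, and a match is only a match of letters.

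Levels of different genes were compared in TPM, a share of transcripts that is corrected for length. Nkg7, a granule protein gene of cytotoxic cells, was by far the most abundant, at 133 ± 27.0 TPM (mean ± SD over 23 mice), above 95.4% of the tested genes. Cd4 followed at 16.8 ± 5.99 TPM. Gzma was at 7.54 ± 2.52 TPM, Cd3g at 5.44 ± 1.41 TPM, Lag3 at 4.62 ± 1.75 TPM, and Klrd1 at 4.02 ± 1.08 TPM. Cd3d (2.71 ± 0.822 TPM), Cd3e (2.17 ± 0.689 TPM), Ncr1 (2.15 ± 0.640 TPM), and Cd8a (1.65 ± 0.553 TPM) were lowest. From Gzma down to Cd8a, the means of neighbours in this order differed by less than the SD of the higher gene, except between Klrd1 and Cd3d, whereas Nkg7 in its lowest mouse (92.2 TPM) exceeded Cd4 in its highest (28.1 TPM).

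Ratios within a mouse set Nkg7 and Cd4 apart from the CD3 genes. The TPM of Nkg7 was between 30.9 and 141 times that of Cd3e in the 23 mice (median 63.6). The ratio of Cd4 to Cd3e ran from 2.93 to 13.4 (median 7.09), and that of Cd4 to Cd8a from 2.31 to 17.2 (median 11.0). Lag3 exceeded Cd3e in most mice, with a ratio from 0.525 to 4.61 (median 2.04). Across mice, Nkg7 tracked Mpo, the myeloperoxidase gene of neutrophil precursors, which was looked at after the values were seen (Pearson r 0.88 over 23 mice, and 0.90 without A3905 and A3906). Its correlation with each of the other 9 genes was at most 0.44.

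The small counts behind most of these values limit their precision. Per library, Nkg7 had 992 to 1915 counts and Cd4 242 to 1005. Lag3 had 29 to 193, Gzma 43 to 115, Cd3g 38 to 96, Cd8a 34 to 108, Klrd1 27 to 85, Cd3d 26 to 79, Cd3e 25 to 59, and Ncr1 11 to 57. Changes are given as log2 fold changes with standard errors (SE) from the edgeR quasi-likelihood test of all 14364 genes, with Benjamini-Hochberg adjusted p values over all of them.

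The first comparison asked what T1D changed in WT bone. Lag3 fell to 0.457 times and Cd4 to 0.629 times its control level in the fit, and the other 8 genes did not pass the test. Of the 10 genes, 2 were called at an adjusted p under 0.05, both lower, where 0.828% of all tested genes were called lower and 2.33% in either direction. All 10 estimates were below 0, with a median of -0.35, where the median over all tested genes was -0.01.

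**Figure D1:**
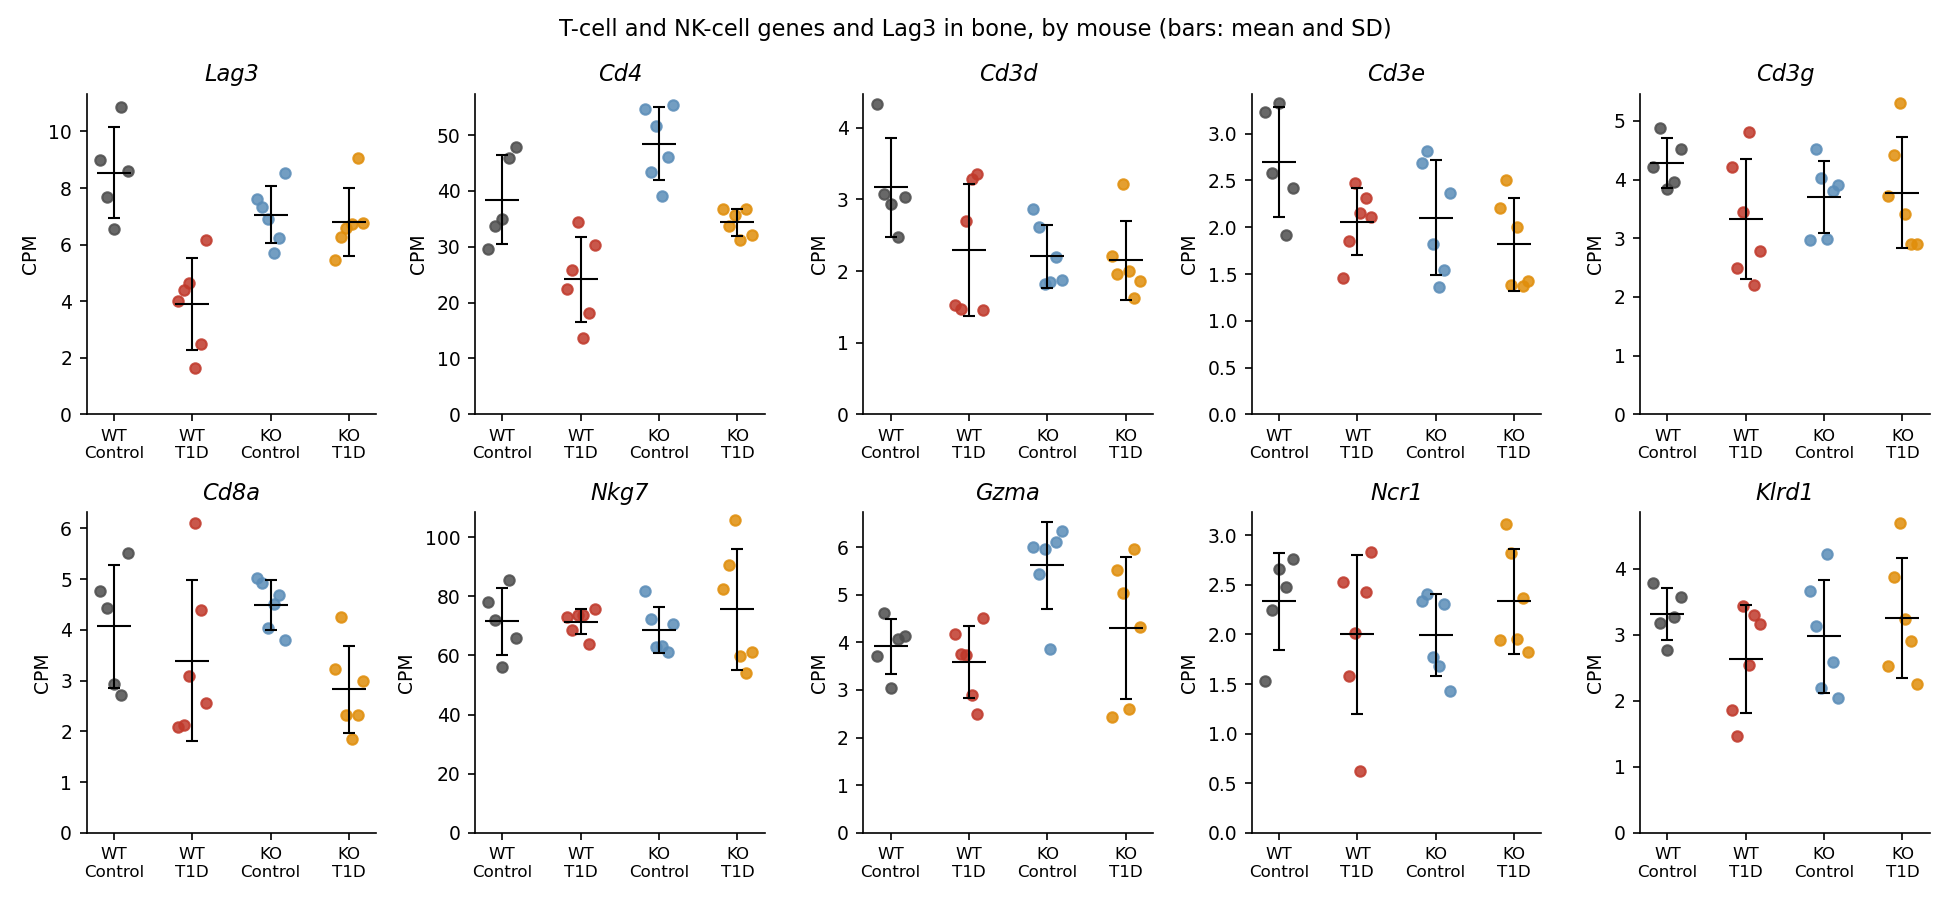
Expression of each of the 10 genes in CPM (vertical axes, starting at 0) in the 4 groups, with 1 point per mouse and bars for the mean and SD. All 6 WT T1D mice lie below all 5 WT Control mice for Lag3, and all 6 KO T1D mice lie below all 6 KO Control mice for Cd4.

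Lag3 was at 8.98, 7.68, 6.55, 10.88, and 8.60 CPM in the 5 WT Control mice. In WT T1D, the first 3 mice, with IDs beginning A17, were at 4.00, 4.41, and 4.65 CPM. The others were at 1.64 CPM (A3905), 2.49 CPM (A3906), and 6.17 CPM (A3909). All 6 diabetic mice thus lay below the lowest control, a separation in this direction found in 0.877% of the tested genes. The means were 8.54 ± 1.61 CPM (SD, n = 5) and 3.89 ± 1.62 CPM (n = 6), and the log2 fold change was -1.13 (SE 0.22, edgeR adjusted p = 0.0268).

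In mice labelled KO, Lag3 did not pass the test for T1D. It was between 5.70 and 8.54 CPM in KO Control (median 7.13) and between 5.44 and 9.06 CPM in KO T1D (median 6.64), and these ranges overlapped almost fully. The log2 fold change was -0.05 (SE 0.21). By mean level, the groups ran from WT Control through KO Control (7.06 ± 1.01 CPM) and KO T1D (6.81 ± 1.21 CPM) to WT T1D. Neighbours in the upper part of this order overlapped, and A3909 was the only WT T1D mouse within the range of KO T1D. The difference of the T1D changes between genotypes, the interaction, was 1.08 (SE 0.31), with an edgeR adjusted p of 0.479, so the change in WT was not shown to differ from that in KO.

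The call for Lag3 was close to the threshold. It was lost when A3767 (adjusted p = 0.0593), A3903 (0.0503), A3904 (0.0730), or A3907 (0.0806) was left out of WT Control, and when A3905 (0.0542) or A3906 (0.0826) was left out of WT T1D, with log2 fold changes from -1.31 to -0.96 over all 23 fits that left out 1 mouse. Without both A3905 and A3906, the change was -0.83 (adjusted p = 0.104), and 0 of the 14364 genes were then called for T1D in WT with edgeR (1575 with an unadjusted p under 0.05). Within the A36 to A39 mice, without the 1 control and 3 diabetic mice with A17 IDs, the Lag3 change was -1.28 (edgeR adjusted p = 0.0162). The WT T1D mice left there were A3905, A3906, and A3909, so A3905 and A3906 weighed more in that fit.

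Cd4, the coreceptor of helper T cells, was lower on average with T1D in both genotypes and passed the test in WT. WT Control mice were at 29.68, 33.79, 34.98, 45.88, and 47.89 CPM. The WT T1D mice were at 22.52, 25.80, 34.47, 13.70, 18.22, and 30.24 CPM, in the order given for Lag3. Here 4 of the 6 diabetic mice were below the lowest control and the other 2 within the control range, and A3905 and A3906 were again lowest. The log2 fold change was -0.67 (SE 0.17, edgeR adjusted p = 0.0458).

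In KO Control, Cd4 was between 39.19 and 55.38 CPM (median 48.92), and in KO T1D between 31.20 and 36.86 CPM (median 34.70). All 6 KO T1D mice were below all 6 KO Control mice, a separation in this direction found in 0.167% of the tested genes. The log2 fold change of -0.49 (SE 0.16) nevertheless had an adjusted p of 1.0 in edgeR, as 0 genes of 14364 were called for T1D in KO (452 had an unadjusted p under 0.05, and DESeq2 also called 0). Averaged over genotypes, Cd4 fell by 0.58 on the log2 scale (SE 0.12, edgeR adjusted p = 0.0448), 1 of 16 genes called in that comparison, 0.111% of all tested (0.0557% lower). Its interaction was 0.18 (SE 0.23).

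The calls for Cd4 were also near the threshold. For T1D in WT, the call held only without A1757, A1764, A1758, A3909, A3672, A3766, or A3674, and leaving out any of the other 16 mice gave adjusted p values from 0.0513 to 0.126. Averaged over genotypes, it held only without A1757, A1758, A3909, or A3672. Without both A3905 and A3906, the change in WT was -0.45 (edgeR adjusted p = 0.289).

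**Figure D2:**
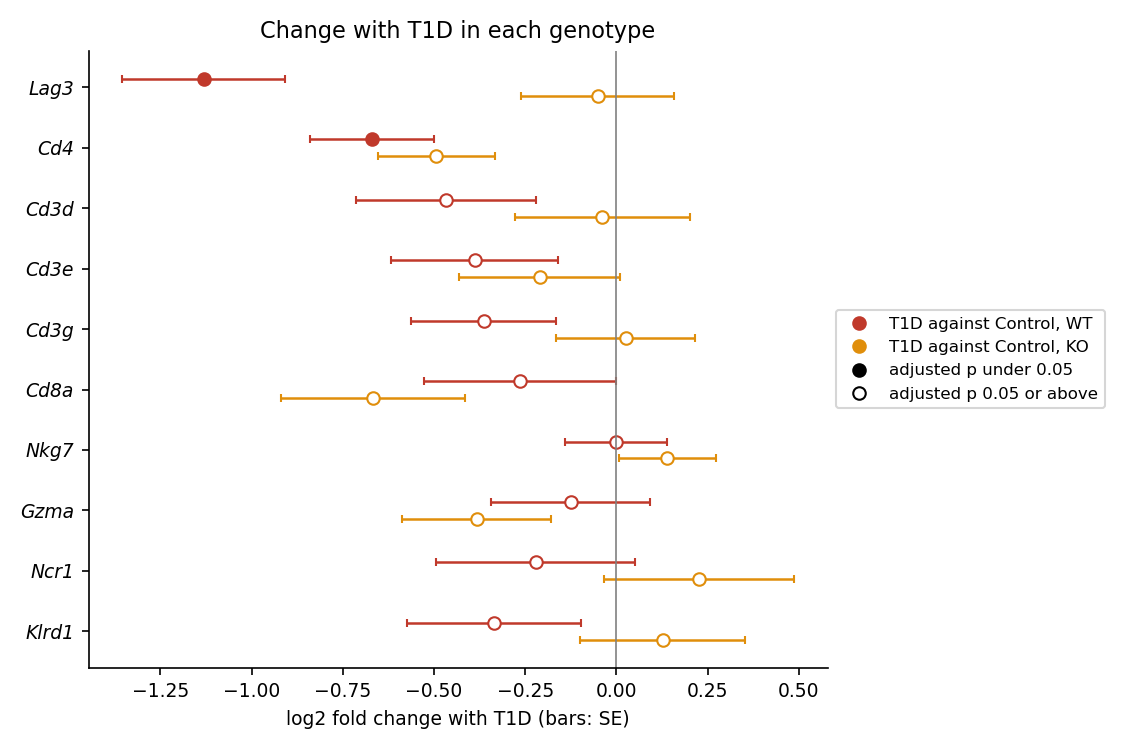
Log2 fold change with T1D (horizontal axis, bars are SE) of each gene in WT mice and in mice labelled KO, with filled points for an adjusted p under 0.05. Lag3 and Cd4 in WT are the only filled points, and the KO estimate for Lag3 lies at -0.05.

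The CD3 genes, which encode the signalling chains of the T-cell receptor, were lower on average in WT T1D, but within the spread of the mice. Cd3d was at 3.17 ± 0.689 CPM in WT Control and 2.30 ± 0.923 CPM in WT T1D (log2 fold change -0.47, SE 0.25). Its WT T1D mice fell into a lower group of 1.45, 1.47, and 1.52 CPM and a higher one of 2.70, 3.28, and 3.35 CPM, and the highest of these were A3905 and A3906. Cd3e changed by -0.39 (SE 0.23) and Cd3g by -0.36 (SE 0.20). In mice labelled KO, the 3 estimates were -0.04 (SE 0.24), -0.21 (SE 0.22), and 0.03 (SE 0.19).

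Cd8a, which encodes a chain of the CD8 coreceptor, was at 4.76, 4.44, 2.94, 2.71, and 5.51 CPM in WT Control. In WT T1D it was at 2.08, 2.12, 3.10, 6.11, 4.40, and 2.56 CPM, with A3905 and A3906 again the highest. The log2 fold change was -0.26 (SE 0.26), and within the A36 to A39 mice it was 0.17. In mice labelled KO it was -0.67 (SE 0.25, edgeR adjusted p = 1.0), from 3.80 to 5.03 CPM in KO Control and from 1.84 to 4.26 CPM in KO T1D. Without A3905 and A3906, the WT changes of Cd8a and Cd3d were -0.73 and -0.83, neither called (edgeR adjusted p = 0.307 and 0.289).

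Among the cytotoxic and NK-cell genes, none of the 4 was called in any of the 6 comparisons with edgeR. Nkg7 was at 71.5 ± 11.3 CPM in WT Control and 71.5 ± 4.35 CPM in WT T1D, a log2 fold change of -0.00 (SE 0.14). Gzma, a granzyme gene, was at 3.92 ± 0.577 and 3.59 ± 0.764 CPM in WT, but at 5.62 ± 0.913 CPM in KO Control and 4.31 ± 1.49 CPM in KO T1D. Its difference between KO Control and WT Control was 0.52 (SE 0.22, edgeR adjusted p = 0.999), and with T1D it was -0.13 (SE 0.22) in WT and -0.38 (SE 0.20) in KO.

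Ncr1, which encodes the NK-cell receptor NKp46, was between 1.53 and 2.76 CPM in WT Control and between 0.62 and 2.83 CPM in WT T1D, where A3905 had the lowest value of all 23 mice, from 11 counts. Its log2 fold change was -0.22 (SE 0.27) in WT and 0.23 (SE 0.26) in KO. Klrd1, which encodes CD94, a partner of NKG2 receptors, changed by -0.33 (SE 0.24) in WT and 0.13 (SE 0.23) in KO. In WT T1D it was lowest in A1764 and A1787, at 1.86 and 1.47 CPM, and between 2.55 and 3.44 CPM in the other 4 mice.

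Genotype was compared within each disease state. Mice with IDs beginning A17 or A39 were all WT, and those with IDs beginning A36 were all KO. Only A3766 (KO Control) and A3767 (WT Control) shared the start of their IDs. Differences between genotypes thus cannot be told apart from differences between ID series. In Control mice, 0 of the 10 genes were called with edgeR (2 had an unadjusted p under 0.05, and DESeq2 called 0), where 0.0278% of all tested genes were called. In T1D mice, 0 of 10 were called with edgeR (2 with an unadjusted p under 0.05, and 1 called with DESeq2), where 0.0905% of all tested genes were. Lag3 was higher in KO T1D than in WT T1D by 0.80 (SE 0.22, edgeR adjusted p = 0.115; DESeq2 adjusted p = 0.0237), and Cd4 by 0.51 (SE 0.16, edgeR adjusted p = 0.162). Without WT T1D mouse A3909, the difference for Lag3 was 0.98 and was called (edgeR adjusted p = 0.0449), and without A3905 and A3906 it was 0.50 (edgeR adjusted p = 0.587). For T1D in KO and for the interaction, 0 of 10 were called (2 and 1 with an unadjusted p under 0.05, and 0 in both with DESeq2), where the share of all tested genes called was 0%.

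Across the 23 mice, the genes did not move as 1 group. Lag3 and Cd4 ran together most closely, with a Pearson r of log2 (CPM + 0.5) of 0.82, or 0.79 after each group's mean was removed. Without A3905 and A3906, r was 0.58 over 21 mice. Cd4 also ran with Gzma (r 0.63). Lag3, in contrast, had an r of -0.07 with Cd3d, 0.08 with Cd3e, 0.17 with Cd3g, and -0.13 with Cd8a. After group means were removed, it was -0.55 with Cd3d and -0.61 with Cd8a, with A3905 and A3906 included. The r of Lag3 with the sum of the CD3 genes was 0.06, and 0.36 without A3905 and A3906. The T-cell genes Cd3d and Cd3e (r 0.57) and Cd3d and Cd8a (r 0.55) ran together, as did Cd3d and Klrd1 (r 0.53). These are descriptions over points that share groups, with genes of few counts among them.

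**Figure D3:**
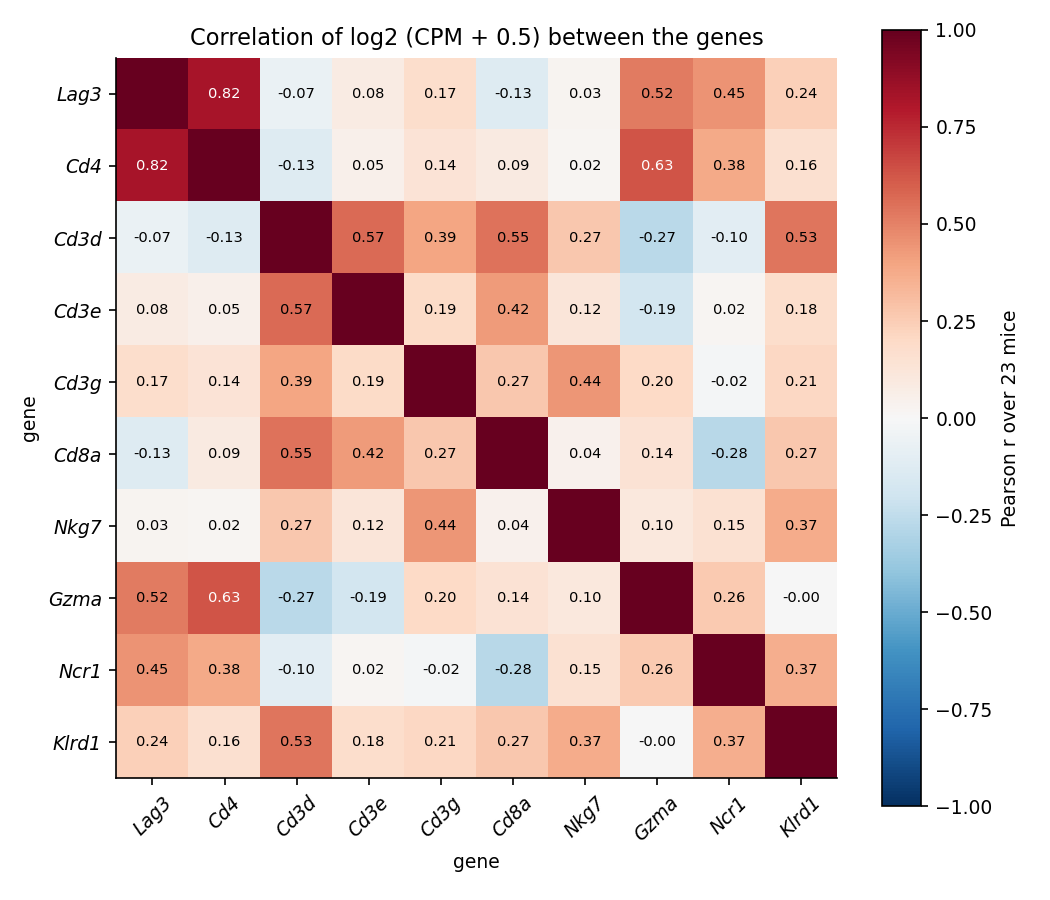
Pearson correlation of log2 (CPM + 0.5) over the 23 mice for each pair of the 10 genes, with color from -1 to 1. Lag3 and Cd4 have the highest value, 0.82, whereas Lag3 with the CD3 genes lies between -0.07 and 0.17.

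The genes most like Lag3 among 13297 other tested genes with a mean of at least 1 CPM were Klk1 (r 0.91), Hoxb2 (0.91), Ifi206 (0.91), Oas2 (0.90), and Ddx58 (0.90). Klk1 encodes a kallikrein protease that is strongly expressed in plasmacytoid dendritic cells, Oas2 and Ddx58 are antiviral genes induced by interferon, and Hoxb2 is a homeobox gene. Among them, Klk1 (log2 fold change with T1D in WT -1.92, SE 0.37, edgeR adjusted p = 0.0236), Hoxb2 (-1.18, SE 0.28, edgeR adjusted p = 0.0440), and Oas2 (-1.31, SE 0.35, edgeR adjusted p = 0.0490) were called. Klk1 has close paralogs, and its reads may be shared with them. Klk1 was also called for T1D averaged over genotypes (-1.32, SE 0.25, edgeR adjusted p = 0.0400). Without A3905 and A3906, the r of Lag3 with Klk1 was 0.77.

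The genes most like the mean z score of Cd3d, Cd3e, and Cd3g were Lmtk2 (r 0.76), Frrs1 (0.73), Sel1l (0.73), Xdh (0.73), and Iqgap1 (0.73), and none of these 5 was called for T1D in WT with edgeR (adjusted p from 0.0767 to 0.973).

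**Figure D4:**
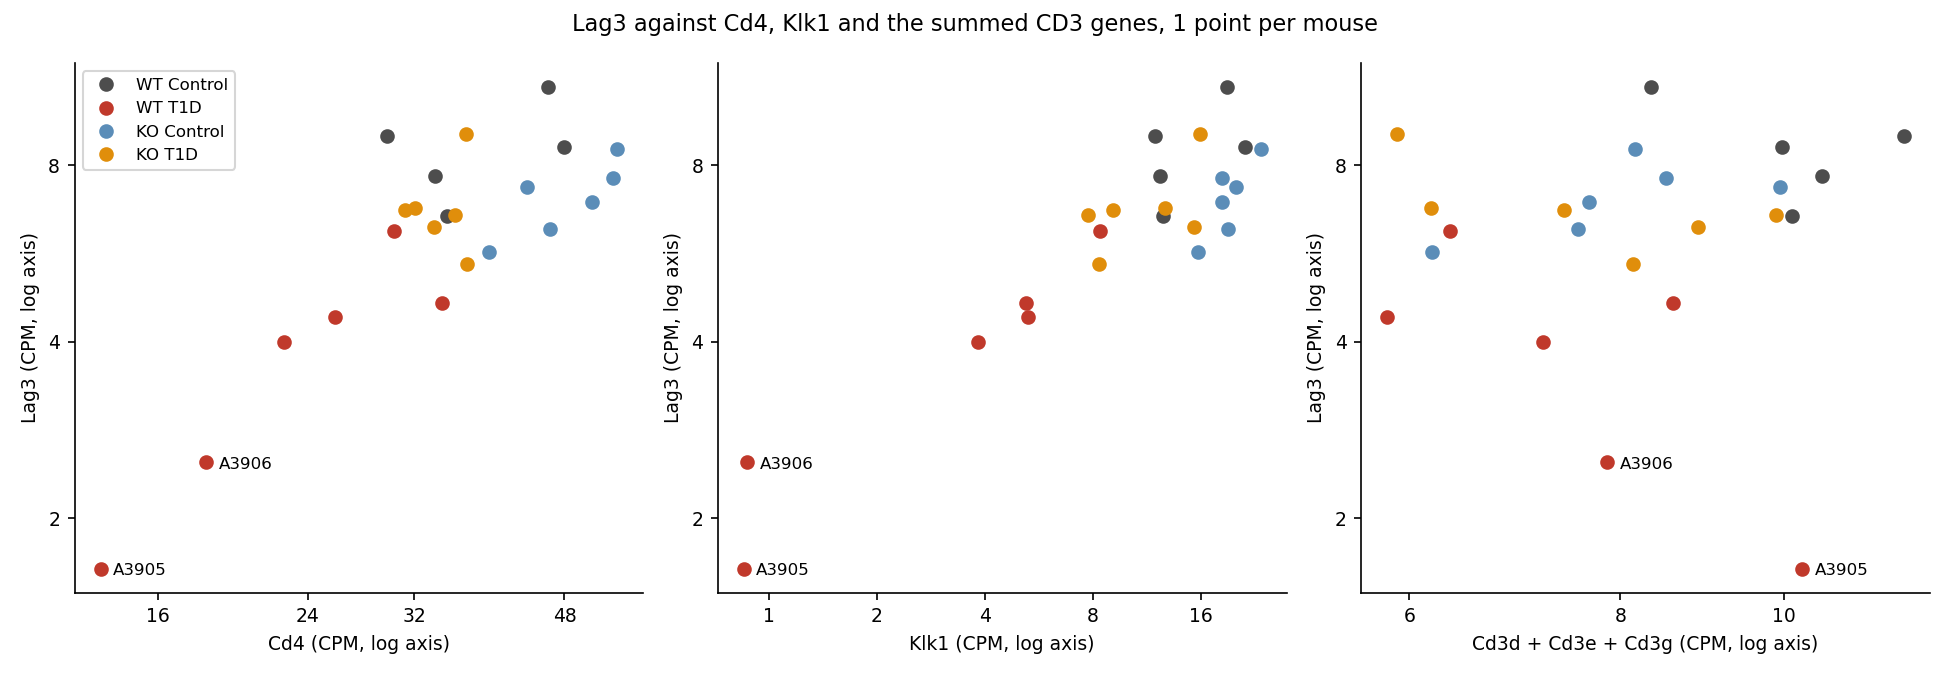
Lag3 in CPM (vertical, log axis) against Cd4, Klk1, and the sum of Cd3d, Cd3e, and Cd3g in CPM (horizontal, log axes), with 1 point per mouse. Mice with little Lag3 have little Cd4 and Klk1 (r 0.82 and 0.91). A3905 has the least Lag3 and 10.25 CPM of CD3 genes, among the higher values (r 0.06 over all mice). Without A3905 and A3906, r was 0.58 with Cd4, 0.77 with Klk1, and 0.36 with the CD3 sum.

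Other genes of the T-cell and NK-cell pathways, from lists that leave out the 10 genes, were then described for T1D in WT. Of the T-cell receptor and signalling genes, 23 were tested, and 0 were called for T1D in WT with edgeR (0 with an unadjusted p under 0.05, 0 with DESeq2). Their median log2 fold change was -0.00, with values from -0.36 to 0.40, against -0.01 over all genes. The most abundant were Lcp2, an adaptor protein gene (-0.01, SE 0.09), Lat, the linker for activation of T cells (0.25, SE 0.16), and Thy1 (-0.08, SE 0.12). The constant regions of the T-cell receptor chains were not analysed here. Among 12 transcription factors of the T lineage, 0 were called with edgeR (2 with an unadjusted p under 0.05, 1 with DESeq2), and the median was -0.08.

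Most cytotoxic and NK-cell genes had estimates below 0 in WT T1D. Of the 32 tested, 26 were below 0 and 1 was called, Klra7, with a median of -0.24 (7 had an unadjusted p under 0.05, and DESeq2 called 2). The 1 call of 32 is read against the 2.33% of all tested genes called, and the median over all tested genes was -0.01. Klra7, an inhibitory Ly49 receptor gene, fell from 2.90 ± 0.856 CPM (SD, n = 5) to 1.35 ± 0.544 CPM (n = 6) in WT (log2 fold change -1.10, SE 0.28, edgeR adjusted p = 0.0451), with 0.58 to 1.96 CPM in WT T1D below the lowest control at 2.03 CPM. The Ly49 genes are near copies of each other, so the level of any 1 of them is uncertain. The most abundant of the list, Cst7 (0.19, SE 0.15), Ccl5 (-0.17, SE 0.20), and Il2rb (-0.18, SE 0.12), were not called. In mice labelled KO, 0 of the 32 were called, where 0 of all 14364 tested genes were, and the median was -0.04.

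Lag3 was also set beside other inhibitory receptors. Of 7 tested, 0 were called for T1D in WT with edgeR (0 with an unadjusted p under 0.05, 0 with DESeq2), with a median of -0.02, and the most abundant were Entpd1 (-0.02, SE 0.08), Btla (0.25, SE 0.16), and Lair1 (-0.04, SE 0.12). Tigit, named after its values were seen, had the lowest estimate in WT (-0.75) and was at 0.17 in KO, and Havcr2, the gene of TIM-3, was at -0.35 and -0.15. Pdcd1 and Ctla4, the genes of PD-1 and CTLA-4, had too few counts to be tested. Among the ligands of LAG3 and the proteases that shed it, 0 of 11 were called with edgeR (5 had an unadjusted p under 0.05, and DESeq2 called 3). The MHC class II genes H2-Aa and H2-Ab1, whose products LAG3 and CD4 bind, changed by -0.52 (SE 0.18, edgeR adjusted p = 0.0962) and -0.64 (SE 0.20, edgeR adjusted p = 0.0771), and Cd74, their chaperone gene, by -0.41 (SE 0.21, edgeR adjusted p = 0.249).

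Markers of other cells that could carry Lag3 or Cd4 RNA were examined beside them. Counts called lower in the dendritic cell lists are read against the 0.828% of all tested genes called lower in WT T1D. Of 14 plasmacytoid dendritic cell genes, 11 were below 0 in WT T1D with a median of -0.38 (-0.11, with 0 called, without A3905 and A3906), and 1 was called, Klk1, which fell from 15.4 ± 4.40 CPM to 4.07 ± 2.90 CPM and was at 0.85 CPM in A3905. The summed level of the list was 484 to 750 CPM in WT Control, 299 to 749 CPM in WT T1D, 586 to 958 CPM in KO Control, and 538 to 726 CPM in KO T1D. The most abundant, Cox6a2 (0.37, SE 0.59), Ly6d (0.02, SE 0.34), and Bst2 (-0.52, SE 0.21), were not called. Ly6d is also a gene of early B cells. Cox6a2 is also a gene of striated muscle, and it ranged from 21.7 to 474 CPM over the mice, a large share of the summed level. Its log2 fold change in KO was -0.83 (SE 0.56), where the median of the skeletal muscle list was -0.45. The defining marker Siglech, looked at after its values were seen, had an r of 0.82 with Lag3 and 0.81 with Cd4, and was at 7.13 and 7.98 CPM in A3905 and A3906 against 21.78 to 32.46 CPM in the other WT T1D mice.

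Of 11 conventional dendritic cell genes, 10 were below 0 in WT T1D with a median of -0.39 (-0.21 without A3905 and A3906), and Clec10a was called (-0.65, SE 0.17, edgeR adjusted p = 0.0459). The most abundant, Naaa, and the monocyte-derived cell marker Cd209a were not called (-0.12, SE 0.14, and -0.93, SE 0.31). The summed level of this list was 98.4 to 120 CPM in WT Control and 75.3 to 97.5 CPM in WT T1D. Of 13 genes of the interferon response, 4 were called lower in WT T1D, where 0.828% of all tested genes were. The median of the list was -0.66 (-0.39 without A3905 and A3906). Without these mice, 0 genes of any of the lists were called. Cxcl10, a chemokine gene induced by interferon, fell from 8.55 ± 4.32 to 2.83 ± 1.45 CPM, and Gbp2, a guanylate-binding protein gene, from 27.3 ± 4.99 to 14.9 ± 3.78 CPM. In mice labelled KO, 0 of the 13 were called with edgeR (1 with an unadjusted p under 0.05), where 0 of all 14364 tested genes were. All 13 were below 0, with a median of -0.33.

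Erythroid genes ran the other way, with 6 of 13 called higher in WT T1D and all 13 above 0 (median 0.60). Of all 14364 tested genes, 215 were called higher. Slc4a1, the gene of the red-cell anion exchanger, rose from 2795 ± 321 to 4368 ± 916 CPM. With an erythroid score as a covariate, the WT changes of Lag3 and Cd4 were -0.70 and -0.21, and 0 of the 14364 genes were called for T1D in WT (569 with an unadjusted p under 0.05). Those of Cd3d and Cd8a moved away from 0, from -0.467 to -0.905 and from -0.264 to -0.694. The score was the mean of these same 13 genes, all above 0 in WT T1D, so it took up part of the T1D contrast itself. The part of erythroid RNA in these changes was not tested. Of 12 osteoblast and osteocyte genes, 2 were called lower, Ibsp and Runx2, where 0.828% of all tested genes were. The median of the list was -0.74, and -0.38 without A3905 and A3906, which had the least Col1a1.

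Lists for B cells (14 tested), macrophages (10), neutrophils (10), mast cells and basophils (7), and skeletal muscle (10) had 0 called for T1D in WT with edgeR. Of these, 0, 6, 2, 0, and 0 had an unadjusted p under 0.05, and DESeq2 called 1, the macrophage gene Vcam1. Their medians were -0.04, -0.17, 0.24, -0.01, and 0.17. Without A3905 and A3906, those of B cells and neutrophils were 0.37 and -0.02. The part of these cells in the changes of Lag3 and Cd4 was not tested.

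**Figure D5:**
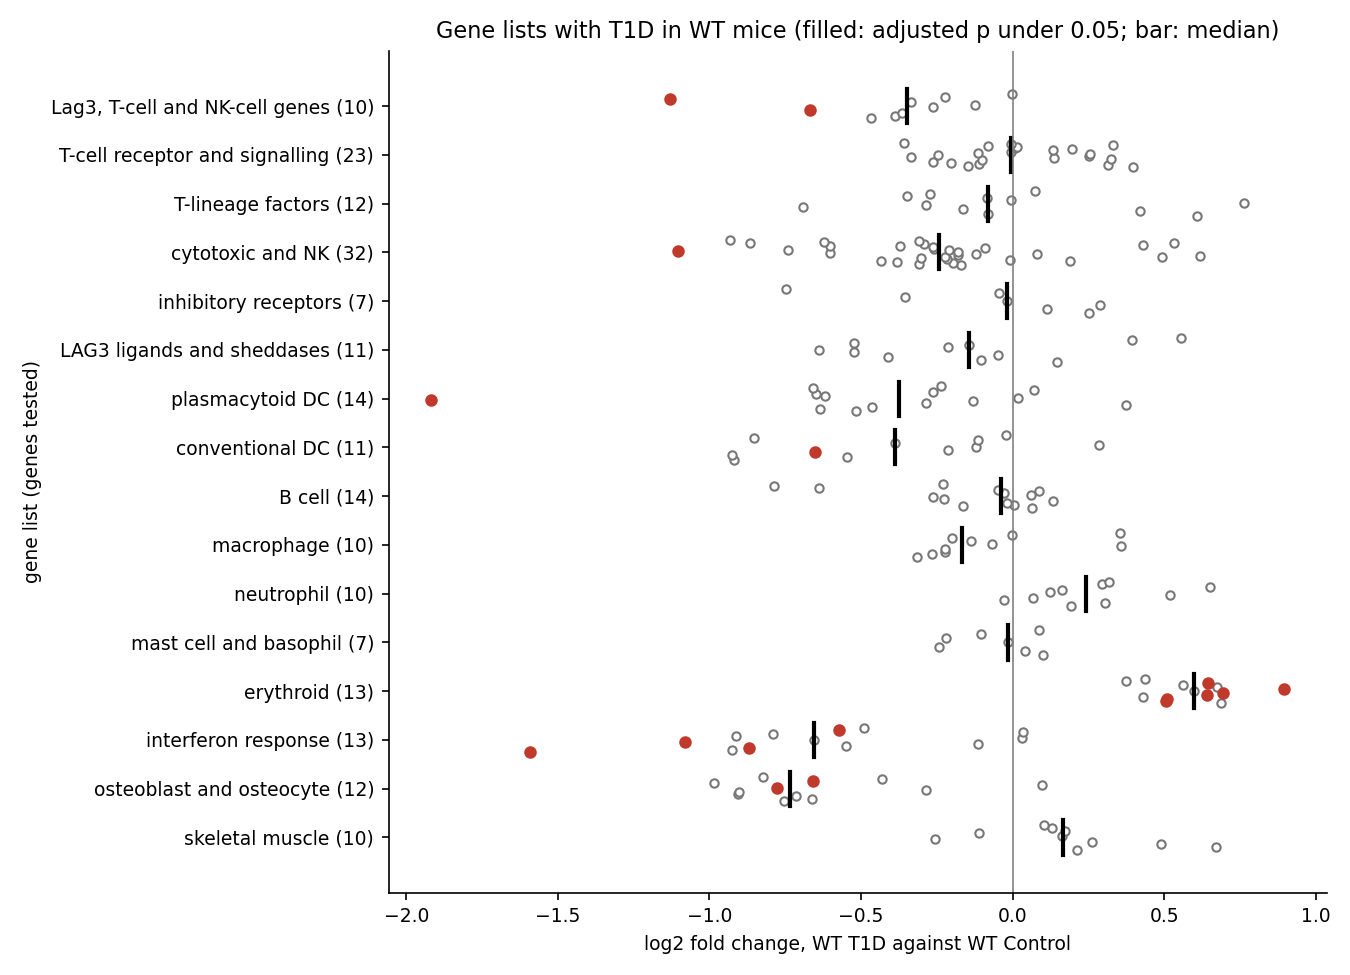
Log2 fold change of each tested gene in WT T1D against WT Control (horizontal axis) for the 10 genes and 15 other lists, with the number tested in parentheses, filled points for an adjusted p under 0.05, and black bars for medians. The T-cell receptor list lies around 0, while the interferon and dendritic cell lists lie below it and the erythroid list above it. The osteoblast and osteocyte list has the lowest median.

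The neighbours of Lag3 and Cd4 on chromosome 6 were then examined, after the values of both were known. Of 12 other tested genes within 100 kb of the pair, 5 were below 0 in WT T1D and 0 were called lower with edgeR. Their log2 fold changes ran from -0.72 (Gpr162, SE 0.47) to 1.02 (Eno2, SE 0.56), with a median of 0.04, and Cdca3, a cell-division gene, was called higher (0.51, SE 0.11, edgeR adjusted p = 0.0367). Ptms, the closest to Lag3, changed by -0.22 (SE 0.18). Around the CD3 genes, 0 of 6 neighbours were called with edgeR (log2 fold changes from -0.15 to 0.72).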

How the data were processed

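Expression was measured by bulk RNA-Seq of oligo dT libraries from 23 mice, 1 library each. The authors deposited rounded RSEM expected counts without normalization, and the sequencing provider's TPM. Per the labels and the study's methods, the mouse build was GRCm38.p6, with HISAT and Bowtie2 as aligners.

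A gene was tested if 5 or more mice had 10 or more counts. Counts were TMM normalized and fitted as 4 group means with edgeR 4.0.16 in R 4.3.3 (quasi-likelihood test), with Benjamini-Hochberg adjustment over 14364 genes and a threshold of 0.05. Alternatives used DESeq2 1.42.0 and limma 3.58.1, and tables and figures were made in Python 3.11.15. CPM are scaled to TMM-adjusted library sizes. In simulated data, with 200 of 14364 genes changed by 1 on the log2 scale for T1D in WT, between 75.5% and 77.5% were recovered. Each gene was drawn independently and no simulated mouse stood apart as A3905 and A3906 did, so this share may not hold for the real data.

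The 10 genes and the other lists were chosen with earlier results of these data known. Named genes were the 10, the 3 most abundant and up to 5 called genes of each list, and the 5 genes most like Lag3 or the CD3 genes. Others are marked in the text as looked at afterwards. Mouse IDs beginning A17 or A36 to A39 were treated as separate series of animals. Within A36 to A39, IDs beginning A36 were all KO and those beginning A39 all WT. The count table's 33212 entries without a numeric gene ID and the paper's supplementary tables were not used. Some genes of the lists are counted but not reported by name here.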

Additional observations from a re-analysis of the deposited data

Results flagged for a closer look

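Within groups, 3 of the 40 sets of values (10 genes in 4 groups) held a mouse far from the others, where chance gives about 1 in 20. Lag3 was 9.06 CPM in KO T1D mouse A3675, against 5.44 to 6.77 CPM in the other 5. Cd3d was 3.21 CPM in KO T1D mouse A3683, against 1.63 to 2.21 CPM in the others. Gzma was 3.85 CPM in KO Control mouse A3672, against 5.44 to 6.34 CPM in the others.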

How the results depend on the processing

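Of 1930 values of the 10 genes under the alternatives, 0 called ones changed sign, 1839 kept their call or stayed uncalled within the spread between mice, 48 lost their call, 23 gained one, and 20 uncalled ones moved by more than that spread. For T1D in WT (334 genes and 2 of the 10 called), the numbers of genes and of the 10 were 2205 and 2 in the A36 to A39 mice, 1002 and 2 with DESeq2, 88 and 1 without the count filter, 0 and 0 with the erythroid covariate or without A3905 and A3906, 5154 and 7 with limma on log2 (TPM + 1), and 5173 and 6 with 0.1 in place of 1. On the 2 TPM scales the median over all genes was -0.24 and -0.29, so lower values there are relative to that shift. With library totals alone, 76 genes were higher and 190 lower, against 215 and 119. The WT T1D mice among the A36 to A39 mice were A3905, A3906, and A3909, so A3905 and A3906 weighed more there.

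Lag3 in WT was -0.70 (adjusted p = 1.0) with the erythroid covariate and -0.83 (0.104) without A3905 and A3906. Cd4 was -0.21 (1.0) and -0.45 (0.289) there, and -0.67 (0.0535) without the count filter. Its interaction was -0.22 with the covariate. The erythroid covariate overlaps with the T1D contrast in WT, since its genes were all above 0 there. For KO against WT in T1D (13 and 0), the numbers were 1538 and 2 in the A36 to A39 mice, 239 and 1 with DESeq2, 1166 and 2 or 1185 and 2 with limma, 5 genes with DESeq2 size factors, 4 with the covariate or without A3905 and A3906, and 3 without the filter. For T1D averaged over genotypes (16 and 1), they were 537 genes in the A36 to A39 mice, 249 and 2 with DESeq2, 1106 and 3 or 951 and 3 with limma, 0 and 0 with the covariate, and 4 and 0 without A3905 and A3906. For the interaction (0), limma on log2 (TPM + 1) called 2 genes.

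Leaving out 1 mouse at a time gave 0 to 1264 genes and 0 to 2 of the 10 for T1D in WT, 0 to 1 and 0 for T1D in KO, 3 to 95 and 0 to 1 for KO against WT in T1D, 0 to 210 and 0 to 2 averaged over genotypes, and 3 to 4 genes for KO against WT in Control. Lag3 ran from -1.31 to -0.96 in WT, from -0.16 to 0.01 in KO, and from 0.91 to 1.26 for the interaction. Cd4 ran from -0.79 to -0.54, from -0.55 to -0.45, and from 0.04 to 0.29. The cause of these shifts was not tested. No paired analysis was possible because the groups share no mouse IDs. Counts of under about 100 per library limit most of the 10 genes.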
